A study of Mus musculus with 6 samples.

Results

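The genes described here are 10 genes of antigen presentation by major histocompatibility complex (MHC) class II, chosen by symbol among the 23284 genes listed in each library. They are *Ciita*, *Cd74*, *H2-Aa*, *H2-Ab1*, *H2-Eb1*, *H2-DMa*, *H2-DMb1*, *Cd80*, *Cd86* and *Ctss*, and all 10 were found. The RNA came from C1498, a mouse line of acute myeloid leukemia (AML) that had been transduced with GFP and expanded from 1 clone. The cells had been injected intravenously into female adult C57BL/6 J mice and were sorted as GFP+ CD49b+ cells from the marrow of femur, tibia and pelvis on day 21. A group of 3 mice had received cytarabine, a nucleoside analog that blocks DNA synthesis, and 3 control mice had not. The sample records call these controls both PBS and nontreat. Each mouse gave 1 library, called here cytarabine 1 to 3 and control 1 to 3, and all 6 mice carried the same leukemia clone.

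MHC class II molecules carry peptides from endosomes to the cell surface, where CD4+ T cells read them. The α and β chains (*H2-Aa* with *H2-Ab1*, and the β chain *H2-Eb1*) assemble around the invariant chain encoded by *Cd74*, cathepsin S (*Ctss*) trims that chain, and the H2-DM heterodimer (*H2-DMa*, *H2-DMb1*) exchanges the remaining fragment for a peptide. The transactivator encoded by *Ciita* switches on most of these genes, and *Cd80* and *Cd86* encode the costimulatory ligands of CD28 and CTLA-4. In marrow, the pathway is known for its high activity in B cells, dendritic cells and macrophages.

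The classical genes lie together on chromosome 17 of GRCm38, from *H2-DMa* (34119541 to 34139101) through *H2-DMb1* (34153072 to 34160230), *H2-Ab1* (34257689 to 34269419) and *H2-Aa* (34282744 to 34287823) to *H2-Eb1* (34305867 to 34316674). Their promoters are known to share an X box and a Y box, on which the factors that hold CIITA assemble. Promoter sequences from RefSeq (GRCm38.p6, 250 bases before to 50 after the start) were matched for 6 of the 10 genes. The stretches below come from genes picked by hand among these and hold motif matches, so they do not stand for the members as a set. They are written 5′ to 3′ on the strand of the gene with motif matches in capitals. The motifs searched on both strands were GNNACNGAT for the X box, ATTGG for the Y box core, the cAMP response element TGACGTCA, and GAAANNGAA, the core of the interferon-stimulated response element. None of the printed matches overlap.
*H2-Eb1*, chr17:34305762-34305826, + strand: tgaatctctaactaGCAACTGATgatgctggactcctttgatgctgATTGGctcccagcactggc
*H2-DMb1*, chr17:34153086-34153150, + strand: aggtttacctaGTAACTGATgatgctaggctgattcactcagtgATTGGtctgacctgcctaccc
*H2-Aa*, chr17:34287864-34287928, - strand: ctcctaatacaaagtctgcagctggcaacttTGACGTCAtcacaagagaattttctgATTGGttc
*Ctss*, chr3:95526726-95526785, + strand: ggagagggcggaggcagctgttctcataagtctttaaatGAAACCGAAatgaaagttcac
In *H2-Eb1* and *H2-DMb1* the X box match was followed by ATTGG after 23 and 24 bases. GNNACNGAT followed by ATTGG within 10 to 30 bases on the same strand was found in 49 of 32851 promoter windows of the mouse genome (0.149%). By itself, GNNACNGAT was found in 7.82% of the windows, ATTGG in 37.4%, TGACGTCA in 1.79% and GAAANNGAA in 8.56%. *H2-Aa* held ATTGG and TGACGTCA, while *Ctss* held GAAANNGAA and no ATTGG. *H2-DMa* held ATTGG in the second of its promoter windows, and the *Cd80* window held none of these letters. These matches describe the sequence and were not tested for binding.

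Library totals inferred from the steps between low values ranged from 11500000 to 18800000 reads, and 3 reads on a transcript of 2000 bases corresponded to 0.0886 to 0.145 FPKM (mapped fragments scaled to the exon length of the gene and to the depth of the library, so a level per length). The labelled cell type was checked against its markers. *Ptprc*, the CD45 gene of leukocytes, was at 284 to 386 FPKM and *Itga2*, the CD49b gene of the gate, at 7.79 to 13.3 FPKM. The T cell gene *Cd3e* was at 130 to 199 FPKM and the myeloid gene *Itgam* at 0.933 to 4.76 FPKM. The T cell gene was thus far above the myeloid gene in every library, so these values do not bear out the myeloid label. The lineage of the cells was not tested. *Itga2* was lower in every cytarabine library (7.79 to 8.11 FPKM) than in every control (10.6 to 13.3 FPKM). The same held for *Itgam* (0.933 to 2.3 against 3.17 to 4.76 FPKM). Their log2 differences were -0.565 and -1.023 (adjusted p = 0.136 and 0.173 from limma). Such a lower level without overlap was found for 12.9% of all tested genes. The groups of *Ptprc* and *Cd3e* overlapped, and *Klrb1c* of the same list was higher in every cytarabine library. So was *Kit* (0.813 to 1.59 against 0.243 to 0.719 FPKM), whose mean was 0.887 FPKM. A higher level without overlap was found for 10.9% of all tested genes. Cytarabine 2, cytarabine 3 and control 1 stood apart with transcripts of colon, whose 7 markers summed to between 1240 and 2700 FPKM there and to between 15.9 and 185 FPKM in the other 3 libraries. The 6 heart markers summed to 4.98 to 2450 FPKM, with the most in control 1. Results for the class II genes are therefore given with single libraries left out and within these sides of the division.

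To compare leukemia cells that remained after cytarabine with those of control mice, the members were examined library by library. The genes for class II chains, invariant chain and H2-DM were expressed in both groups at low to moderate levels, and the groups of all 6 genes overlapped. *Cd74* had the highest level of these in every library, with 15.3, 52.1 and 30.4 FPKM in cytarabine 1, 2 and 3 and 13.8, 31.2 and 7.04 FPKM in control 1, 2 and 3. The groups overlapped, with cytarabine 2 highest and control 3 lowest. *Cd74* lies on chromosome 18 from 60803848 to 60812652. On the log2(FPKM + 1) scale, the treated mice had a mean of 4.91 ± 0.85 (SD, n = 3) and the controls one of 3.97 ± 1.00 (SD, n = 3). The difference of 0.94 (standard error 0.63, 95% interval -0.61 to 2.49) had an adjusted p of 0.43 from limma. In bulk RNA, fewer cells of a type and less RNA per cell cannot be told apart, so these levels are averages over whatever the sorted fraction held.

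The α chain of the I-A molecule, *H2-Aa*, had 7.95, 39.9 and 28.8 FPKM in the treated mice against 13.2, 30.3 and 4.12 FPKM in the controls. Its partner β chain *H2-Ab1* was at 5.40, 15.0 and 7.04 FPKM against 6.03, 11.6 and 2.46 FPKM. The I-E β chain *H2-Eb1* was at 3.43, 16.6 and 11.1 FPKM against 3.97, 11.4 and 1.06 FPKM. All 3 genes had the same order of libraries, from control 3 at the bottom through cytarabine 1, control 1, cytarabine 3 and control 2 to cytarabine 2 at the top, so treated and control mice alternated. *H2-Eb1* had the widest range, 15.6-fold from the lowest to the highest library, and it spanned 10.7-fold among the controls and 4.83-fold among the treated mice. The log2 differences were 0.76 for *H2-Aa* (standard error 0.84, adjusted p = 0.616 from limma), 0.48 for *H2-Ab1* (standard error 0.56, adjusted p = 0.636) and 0.96 for *H2-Eb1* (standard error 0.79, adjusted p = 0.509). None of these differences was larger than the spread between mice. With 3 mice a group the intervals were wide, reaching from -1.30 to 2.81 for *H2-Aa*, so differences anywhere within them were compatible with the values.

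**Figure D1:**
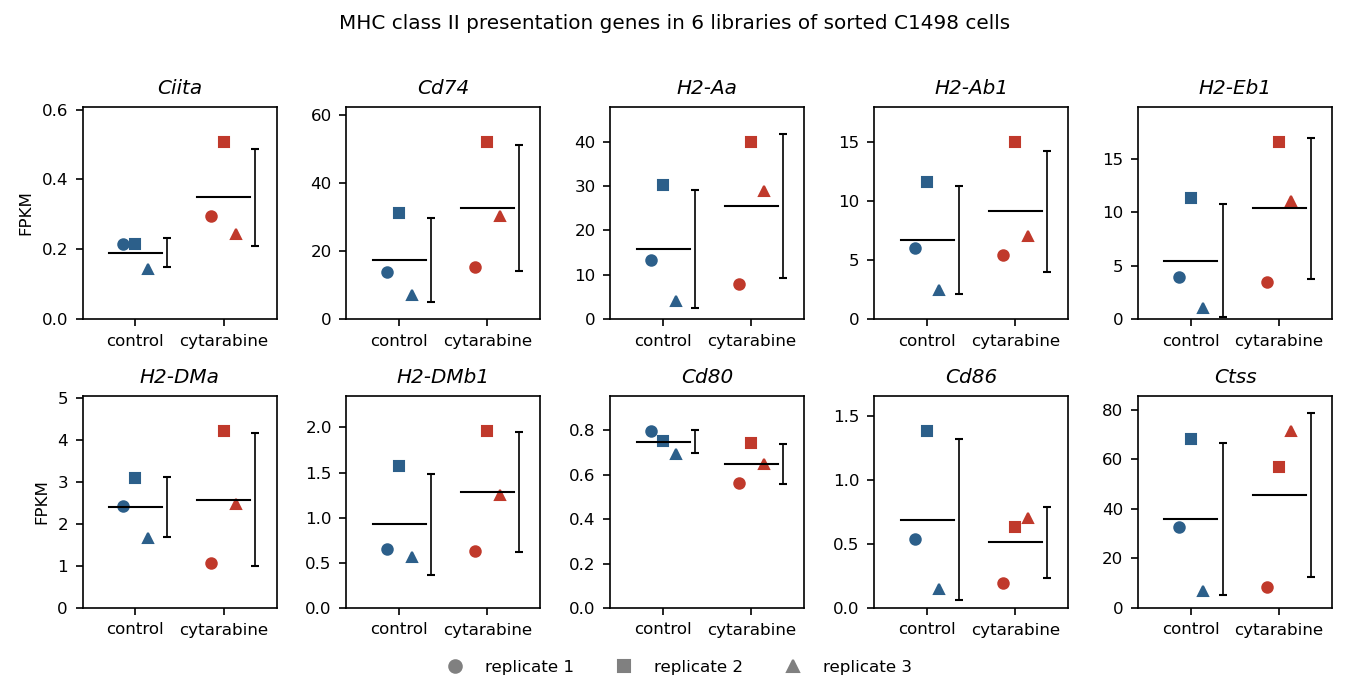
FPKM (y axis, linear from 0) of each of the 10 genes in the 3 control (blue) and 3 cytarabine (red) libraries, with marker shape for the replicate number, the group mean as a horizontal line and the SD as an error bar. The groups overlap in 9 of the 10 panels, and in *Ciita* the lowest cytarabine library (0.244 FPKM) lies above the highest control library (0.215 FPKM).

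The peptide-exchange genes were lower. *H2-DMa* had 1.06, 4.22 and 2.47 FPKM in the treated mice against 2.44, 3.09 and 1.66 FPKM in the controls, and its log2 difference was 0 (standard error 0.38, 95% interval -0.93 to 0.93). *H2-DMb1* had 0.636, 1.96 and 1.25 FPKM in the treated mice against 0.650, 1.57 and 0.562 FPKM in the controls, a log2 difference of 0.24 (standard error 0.35, adjusted p = 0.711 from limma). Its values rest on about 8 to 44 reads, counted over the longest transcript of the annotation. Cytarabine 2 was again the highest library for both genes, while the lowest was cytarabine 1 for *H2-DMa* and control 3 for *H2-DMb1*. *H2-DMb1* has a close copy in the neighbouring *H2-DMb2*, between which Cufflinks could have divided reads.

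*Ctss* was the most abundant member in 4 of the 6 libraries. It had 8.35, 56.7 and 71.4 FPKM in the treated mice against 32.5, 68.1 and 7.01 FPKM in the controls, so that cytarabine 1 and control 3 lay far below the other 4 libraries. Its log2 difference of 0.36 had a standard error of 1.08 (adjusted p = 0.864 from limma), the largest standard error among the tested members. The ratio of *Ctss* to *Cd74* was between 0.547 and 2.36 over the libraries, a spread of 4.31-fold, whereas that of *H2-Eb1* to *H2-Aa* stayed between 0.259 and 0.432. *Ctss* lies on chromosome 3 from 95526786 to 95556403.

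*Ciita* had 0.296, 0.507 and 0.244 FPKM in the treated mice against 0.215, 0.214 and 0.142 FPKM in the controls. It was the single member whose groups did not overlap, with a ratio of group means of 1.84. A value this low corresponds to about 9 to 55 reads per library over the longest transcript of 6007 bases, and its mean fell under the limit of 1 FPKM set for testing. Fitted without that limit, the log2 difference was 0.18 (standard error 0.09) with an unadjusted p of 0.0909 and an adjusted p of 0.451 from limma, and the added 1 FPKM makes the fold change of so low a gene look smaller on this scale. In that fit the groups did not overlap for 18.2% of the 18178 genes, against 1 of the 10 members, and an unadjusted p under 0.05 was reached by 12.9% of the genes and 0 of the members. With quantile normalization the groups of *Ciita* overlapped, and without cytarabine 2, its highest library, the difference was 0.09. *Ciita* lies on chromosome 16 from 10480059 to 10528418.

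The costimulatory ligands also had a mean under 1 FPKM. *Cd80* had 0.561, 0.741 and 0.649 FPKM in the treated mice against 0.797, 0.754 and 0.695 FPKM in the controls, and it was the steadiest member, with a 1.42-fold range over all 6 libraries. *Cd86* was at 0.196, 0.632 and 0.703 FPKM against 0.540, 1.38 and 0.148 FPKM, with its highest and its lowest value both among the controls. The log2 differences, fitted without the limit on low values, were -0.09 for *Cd80* (standard error 0.09, adjusted p = 0.662 from limma) and -0.11 for *Cd86* (standard error 0.30, adjusted p = 0.862). The 2 ligands lie on chromosome 16, and *Cd86* rested on about 4 to 40 reads per library.

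Of the 7 members with a mean of at least 1 FPKM, 0 had an unadjusted p under 0.05 from limma, a call made for 17.4% of the 11703 genes tested. An adjusted p under 0.05 was reached by 0 of the 11703 genes, of which 2038 had an unadjusted p under 0.05. Over all 10 members the median log2 difference was 0.30, beside -0.002 over all tested genes, and the mean was higher with cytarabine in 7 of the 10, beside 49.7% of the tested genes. Since the members vary together between libraries, these counts do not stand for separate observations.

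Leaving out 1 library moved the chains by more than 1.5 times. Without control 3, the library with the lowest level, the log2 difference was 0.46 for *Cd74*, 0.08 for *H2-Aa*, -0.01 for *H2-Ab1* and 0.32 for *H2-Eb1*. Without control 2, the highest control, it was 1.46 for *Cd74* and 1.61 for *H2-Eb1*. Among the libraries with much colon transcript (cytarabine 2 and 3 against control 1) the differences were 1.47 for *Cd74*, 1.30 for *H2-Aa* and 0.95 for *Ctss*. Among those with little of it (cytarabine 1 against control 2 and 3) they were 0.02, -0.50 and -1.33. Each of these values sets 1 library against 2 and has no test. With the colon list as a covariate 0 of the 7 tested members had an unadjusted p under 0.05, beside 15.4% of all genes. The part of colon RNA in these differences was not tested.

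Markers of cells that are known to carry class II were measured in the same libraries. The 6 genes for class II chains, invariant chain and H2-DM summed to 33.8, 130 and 81.0 FPKM in cytarabine 1, 2 and 3 and to 40.0, 89.1 and 16.9 FPKM in control 1, 2 and 3. The 9 B cell markers analysed summed to 9.18, 18.3 and 9.64 FPKM and to 9.44, 12.2 and 8.29 FPKM, which is the same order of libraries. From control 3 to cytarabine 3 these sums spanned only 8.29 to 9.64 FPKM, and none of the 9 markers had this order by itself. Among them, the B cell receptor components *Cd79a* and *Cd79b* had the highest means, and *Cd79a* was at 5.88 FPKM in cytarabine 2 and at 1.90 to 2.95 FPKM in the others. *Cd79b* was higher in every cytarabine library (2.26 to 3.83 FPKM) than in every control (1.31 to 2.03 FPKM), a log2 difference of 0.66 (standard error 0.22, adjusted p = 0.231 from limma). A higher level without overlap was found for 10.9% of all tested genes. *Pax5*, which defines the B lineage, went the other way, at 0.105 to 0.228 FPKM in the treated mice and 0.350 to 0.692 FPKM in the controls.

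The macrophage genes *C1qa*, *C1qb* and *C1qc*, which encode complement C1q, summed to 6.84, 45.5 and 37.7 FPKM with cytarabine and to 22.9, 130 and 7.63 FPKM in controls. Their sum and that of the class II genes were both lowest in cytarabine 1 and control 3, but C1q was highest in control 2 rather than cytarabine 2. In control 1 the class II sum (40.0 FPKM) was near that of cytarabine 1 (33.8 FPKM), whereas the C1q sums were 22.9 and 6.84 FPKM. The 12 markers of monocytes and macrophages summed to 106 to 186 FPKM with cytarabine and to 136 to 419 FPKM in controls, led by *Lyz2* at 52.8 to 233 FPKM, and *Vsig4* of resident macrophages was at 0 in 3 libraries. Of the 10 dendritic cell markers 7 stayed under 1 FPKM in every library, among them *Xcr1*, *Clec9a* and *Zbtb46*, and *Cd209a* was at 0 in 3. The sum of that list, 19.8 to 23.7 FPKM with cytarabine and 8.79 to 29.0 FPKM in controls, came mostly from *Batf3* (7.03 to 23.1 FPKM). Over the 6 libraries, the mean log2(FPKM + 1) of the 6 class II genes had a Pearson correlation of 0.84 with the C1q genes, 0.81 with the B cell list, 0.80 with the dendritic cell list, 0.79 with the list that checked the sorted leukemia cells, 0.76 with the monocyte and macrophage list, 0.48 with the colon list, 0.15 with the heart list and -0.62 with the neutrophil list. These points share their libraries and depth, and the correlations are descriptions over 6 values. Within the list that checked the sorted cells, single genes went both ways. The correlation was 0.835 for *Cd34* (0.41 to 7.72 FPKM) and 0.34 for *Klrb1c*. It was -0.36 for *Itga2*, -0.533 for *Ptprc*, -0.611 for *Cd3e* and -0.459 for *Itgam*.

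**Figure D2:**
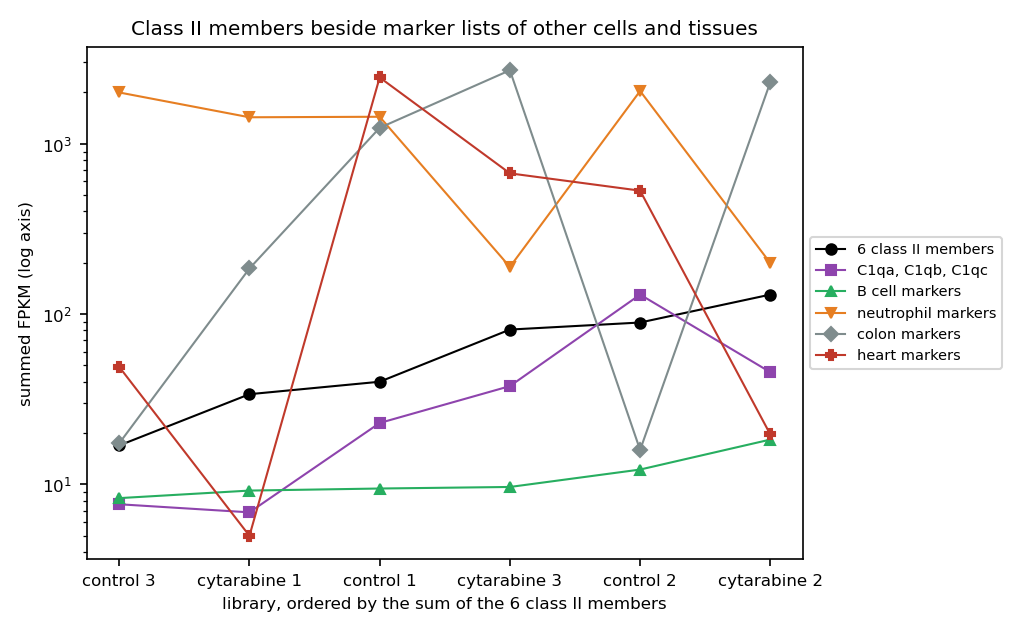
Summed FPKM (log axis) of 6 class II genes and of marker lists in each library, joined by lines for each list, with the libraries ordered by the class II sum from control 3 (16.9 FPKM) to cytarabine 2 (130 FPKM). The sum of the B cell markers rises along the same order, from 8.29 to 18.3 FPKM, although no single marker has that order. The colon, heart and neutrophil lists change up and down along it.

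Ratios to the C1q genes depended on which of them was the divisor. The ratio of *Cd74* to *C1qa* was 8.36, 2.81 and 2.11 with cytarabine and 1.56, 0.655 and 1.98 in controls, and that of *H2-Aa* to *C1qa* was 4.35, 2.15 and 2.00 against 1.49, 0.638 and 1.16. In both of these the groups did not overlap. Over *C1qb* the groups did not overlap either, for *Cd74* (3.41 to 7.15 with cytarabine, 0.883 to 3.31 in controls) or for *H2-Aa* (3.17 to 3.72 and 0.86 to 2.06). Over *C1qc* they overlapped for *Cd74* (2.12 to 5.31 with cytarabine, 0.659 to 3.62 in controls) and for *H2-Aa* (2.01 to 2.78 and 0.641 to 2.12). Over the sum of the 3 genes they overlapped for *Cd74* (0.806 to 2.23 and 0.239 to 0.922) but not for *H2-Aa* (0.765 to 1.16 and 0.233 to 0.575). The ratios of *Ctss* overlapped with every divisor tried, and all these ratios were chosen after the values had been seen. How many of all genes separate when divided by the same C1q genes was not counted. The separations of *Cd74* and *H2-Aa* are therefore descriptions only. With the mean of the 3 C1q genes as a covariate, a fit also chosen after the data were seen, the log2 difference was 1.12 for *Cd74* (standard error 0.18, unadjusted p = 0.00187 from limma), 0.99 for *H2-Aa* (standard error 0.22, unadjusted p = 0.00705) and 1.19 for *H2-Eb1* (standard error 0.17, unadjusted p = 0.00112). The adjusted p was 0.182, 0.192 and 0.182, and over all alternatives it ranged from 0.182 to 0.776 for *Cd74*, from 0.192 to 0.978 for *H2-Aa* and from 0.182 to 0.871 for *H2-Eb1*. In that fit 3 of the 7 tested members had an unadjusted p under 0.05, all of them higher, beside 18.3% of all tested genes in either direction and 7.57% higher. When each library was left out of it in turn, *H2-Aa* differed by 0.71 (without control 2) to 1.19 (without control 1). The monocyte and macrophage list includes the 3 C1q genes, so a fit with it is not separate from the C1q fit. With this list as the covariate 4 members had an unadjusted p under 0.05, *H2-Ab1* being the fourth, beside 16.6% of all genes. With the B cell list as the covariate 0 of the 7 did, beside 14.1% of all genes, and *Cd74* differed by 0.60 (standard error 0.45, adjusted p = 0.55 from limma). The part of macrophages or B cells in the class II levels was not tested.

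**Figure D3:**
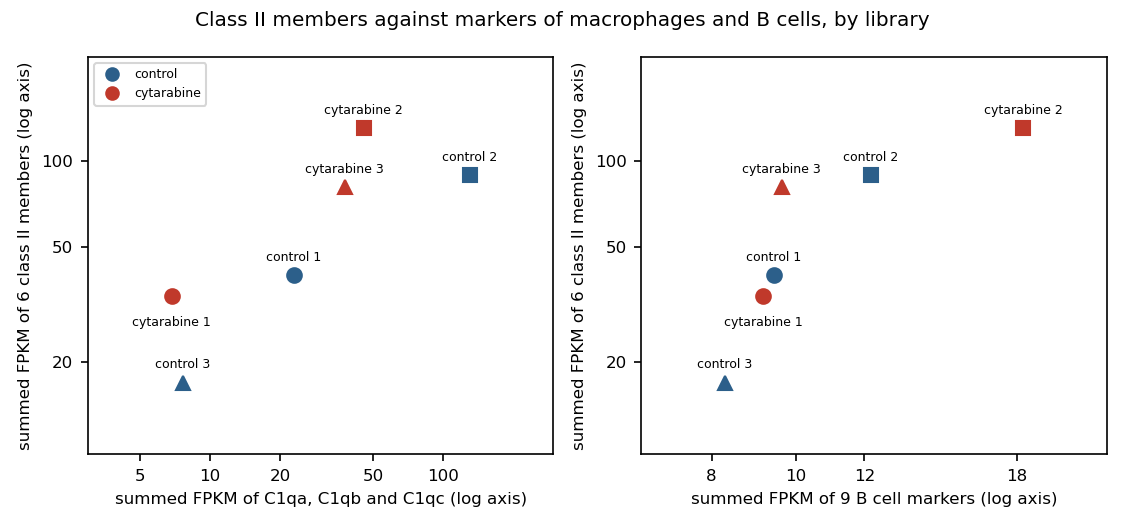
Summed FPKM of 6 class II genes (y, log axis) against that of the C1q genes (left, x, log axis) and of 9 B cell markers (right, x, log axis), 1 point for each library, red for cytarabine and blue for control. At left control 2 has the highest C1q sum (130 FPKM) at a class II sum of 89.1 FPKM, below cytarabine 2 with 45.5 and 130 FPKM.

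The other chains of the class II region did not all follow the members. *H2-Ea-ps*, the I-E α chain gene that the annotation lists as a polymorphic pseudogene (chromosome 17 from 34341959 to 34344645), had 5.16, 50.2 and 31.1 FPKM in the treated mice against 16.3, 36.5 and 3.76 FPKM in the controls. C57BL/6 mice are known to carry a deletion at the start of this gene and to lack the I-E molecule at the cell surface. Its level was nonetheless 0.649 to 1.26 times that of *H2-Aa* and had the same order of libraries, and its log2 difference was 0.57 (standard error 1.05, adjusted p = 0.769 from limma). *H2-Eb2*, a second β chain gene, was at 2.13 to 5.40 FPKM in a different order, with a correlation of 0.04 with the class II mean. Chosen after their values were seen, *H2-DMb2* reached 4.55 FPKM in cytarabine 2 and was at 0.299 to 1.03 FPKM in the other libraries, and *H2-Oa*, an inhibitor chain of peptide exchange, was higher in every cytarabine library (1.06 to 1.81 FPKM) than in every control (0.382 to 0.831 FPKM). The log2 difference of *H2-Oa* was 0.53 (standard error 0.27, adjusted p = 0.355 from limma), and 10.9% of all tested genes were higher without overlap. Of the 4 genes tested in this group 0 had an unadjusted p under 0.05, beside 17.4% of all tested genes.

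The factors that bind class II promoters varied little between libraries. All 7 were tested, and their summed level was 117 to 136 FPKM with cytarabine and 127 to 141 FPKM in controls. *Nfyc* and *Nfyb*, subunits of the Y box factor NF-Y, were the highest, at 40.4 to 47.6 and 21.4 to 23.6 FPKM. *Rfxap*, a subunit of the X box complex RFX, was lower in every cytarabine library, with 11.8, 10.7 and 10.6 FPKM against 12.1, 13.3 and 13 FPKM. It was the single gene of the group with an unadjusted p under 0.05, beside 9.81% of all tested genes called lower, and its log2 difference was -0.20 (standard error 0.08, adjusted p = 0.275 from limma). Its unadjusted p of 0.0426 was not kept under 0.05 in 12 of 19 alternative fits, with 0.242 from limma when the colon list was a covariate.

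On the interferon-γ axis, which induces *Ciita* in many cells, 4 of 9 tested genes had a higher level with cytarabine at an unadjusted p under 0.05 and 0 a lower one. For the same call the share of all tested genes was 7.6% higher and 9.81% lower. Because the list was chosen with earlier results of these data known, its counts are descriptions only. *Irf1*, a transcription factor downstream of the interferon receptors, had 99.1, 82.1 and 64.5 FPKM in the treated mice against 51.4, 49.5 and 49.2 FPKM in the controls, a log2 difference of 0.68 (standard error 0.16, adjusted p = 0.161 from limma). *Socs1*, a feedback inhibitor of JAK signaling, was at 20.2, 14.4 and 8.92 FPKM against 6.02, 5.01 and 5.64 FPKM, a log2 difference of 1.18 (standard error 0.28, adjusted p = 0.166). The kinases *Jak1* and *Jak2* differed by 0.26 and 0.30 (adjusted p = 0.137 and 0.182 from limma). All 4 genes had no overlap between groups, which was so for 23.8% of the tested genes (10.9% higher and 12.9% lower with cytarabine). *Irf1* and *Socs1* were highest in cytarabine 1, the treated library in which *Cd74* and *H2-Aa* were lowest. *Ifng* itself was listed at 0 in all 6 libraries.

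In the endosomal group, 1 of 9 tested genes had an unadjusted p under 0.05, beside 17.4% of all tested genes. *Ifi30*, the lysosomal thiol reductase that opens disulfide bonds of antigens, had 124, 152 and 132 FPKM in the treated mice against 103, 98.8 and 110 FPKM in the controls, a log2 difference of 0.38 (standard error 0.09, adjusted p = 0.167 from limma). *Cst3*, the protease inhibitor cystatin C, had the highest level at 165 to 278 FPKM and differed by 0.14 (standard error 0.23). The processing proteases *Ctsh* and *Lgmn*, chosen after their values were seen, resembled *Ctss* in being low in cytarabine 1 and control 3. *Ctsh* was at 2.36 and 1.59 FPKM in these and at 8.35 to 13.6 FPKM in the other 4, and *Lgmn* at 4.88 and 3.74 FPKM against 14.3 to 26.7 FPKM. *March8*, a ubiquitin ligase that removes class II and CD86 from the surface, was at 13.8 to 16.1 FPKM, and *Cd83*, which opposes such removal, was at 0.0893 to 2.47 FPKM.

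The last group held receptors of CD80 and CD86 and other ligands of their family. All 4 tested genes of this group had a higher level with cytarabine at an unadjusted p under 0.05, and none of the 4 had overlapping groups. Over all tested genes, 7.6% were called higher and 10.9% were higher without overlap. The lists were chosen with earlier results of these data known, so counts in this group and across the pathway are descriptions only. *Cd28*, the activating receptor of CD80 and CD86, had 36.4, 30.9 and 37.9 FPKM in the treated mice against 14.7, 12.4 and 14.0 FPKM in the controls. Its log2 difference was 1.29 (standard error 0.11, unadjusted p = 2.18e-05, adjusted p = 0.128 from limma), and it had the same direction within both sides of the colon division (1.17 and 1.40). The inhibitory ligands of PD-1, *Cd274* and *Pdcd1lg2*, differed by 0.89 and 0.47 (adjusted p = 0.151 and 0.211 from limma). *Ctla4*, the inhibitory receptor of CD80 and CD86, was at 1.5, 3.85 and 1.47 FPKM against 1.18, 0.0466 and 0.201 FPKM, a log2 difference of 1.15 (standard error 0.43, adjusted p = 0.266 from limma). With the colon list as a covariate its unadjusted p from limma was 0.188. Across all lists of the pathway, 9 of 34 tested genes were higher and 1 was lower at an unadjusted p under 0.05, beside 7.6% and 9.81% of all tested genes, and 0 had an adjusted p under 0.05. In the same comparison the 8 neutrophil markers, led by *S100a8* and *S100a9*, summed to 189 to 1430 FPKM with cytarabine and to 1440 to 2040 FPKM in controls, and 7 of them were lower at an unadjusted p under 0.05. The part of neutrophil RNA in these differences was not tested.

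**Figure D4:**
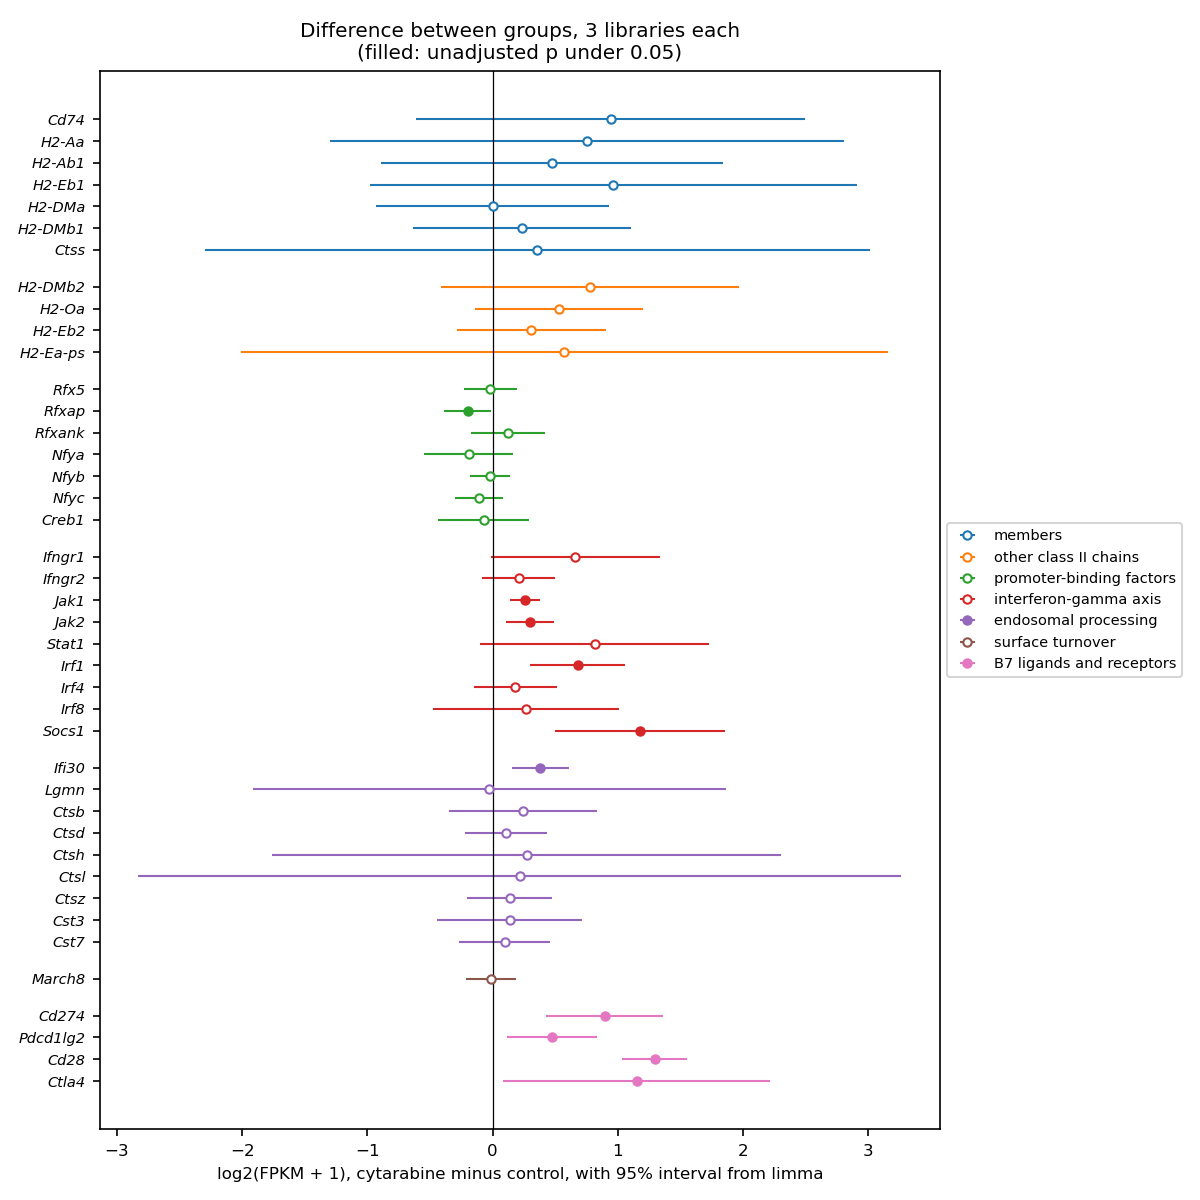
Difference in log2(FPKM + 1), cytarabine minus control (x axis), for the 7 tested members and 34 tested genes of the pathway (rows), with 95% intervals from limma and filled points for an unadjusted p under 0.05. All 7 members have open points and intervals across 0, while *Irf1* (0.68), *Socs1* (1.18), *Cd274* (0.89) and *Cd28* (1.29) lie above it.

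The genes outside these lists whose level was most like the mean of the 6 class II genes over the libraries were *Ntpcr*, *2310010J17Rik*, *Mdfic*, *Agtr1a* and *Rgs10*, with Pearson correlations of 0.983 to 0.997 among 11703 genes and 6 libraries. *Rgs10*, a regulator of G protein signaling, was the most abundant of them, with 18.7, 27.9 and 23.4 FPKM in the treated mice against 19, 23.0 and 14.3 FPKM in the controls. The other 4 were at 4.61 FPKM or less, and *Ntpcr* was at 0 in control 3. Of the members, *H2-Eb1* had the highest correlation with that mean (0.992) and *H2-DMa* the lowest of those it was made from (0.848), and *Ctss*, which was not part of it, had 0.901.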

How the data were processed

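RNA from sorted C1498 cells of 3 cytarabine-treated and 3 control mice was analysed, with groups and replicate numbers from the sample records. The authors mapped 75-base single-end reads of stranded mRNA libraries to mm10 with TopHat2 2.0.13, Bowtie2 2.2.3 and SAMtools 0.1.19, and deposited the FPKM values of Cufflinks 2.2.1 per gene. The gene annotation and the Cufflinks options are not given in the sources used here. FPKM are not counts, so no count model was fitted.

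The deposited values were transformed to log2(FPKM + 1). Cytarabine and control were compared by limma 3.58.1 (R 4.3.3) over the genes whose mean reached 1 FPKM (two-sided, eBayes with trend, Benjamini-Hochberg adjustment over all tested genes). The step was also run on simulated data with independent errors for each gene. Genes vary together in these libraries, so that run is not evidence for the results here. With 3 mice against 3, an exact permutation test cannot go below 0.1, and none was run. Read totals came from genes with 1 GENCODE M21 transcript (GRCm38, as mm10), assuming fragments of 200 bases. At those totals, 71.2% to 75.4% of low values lay within 0.1 of a whole read. The members and lists were chosen with earlier results of these data known. Named are all members, pathway genes with an unadjusted p under 0.05, the 2 highest genes of each list, markers at 0 and the 5 most alike genes. Others were chosen after values were seen. *Spi1*, *Ighm*, *Igkc* and *Muc2* were not analysed here. Emr1 is *Adgre1* and March8 is *Marchf8*. Python 3.11.15 and matplotlib 3.10.9 were used. Alternatives were another pseudocount, other filters and scalings, other eBayes settings, a replicate block, covariates and leaving out libraries.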

Additional observations from a re-analysis of the deposited data

How the results depend on the processing

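The number of members at an unadjusted p under 0.05 was 0 in limma and stayed 0 under the alternatives run, except for 3 with the C1q covariate and 4 with the monocyte and macrophage covariate, both added after the data were seen. The second of these covariates includes the genes of the first. The number of members without overlap was 1, became 0 with quantile normalization and was 1 to 2 with a library left out, being 2 without cytarabine 2, control 2 or control 3. With all libraries and no limit on low values, the groups did not overlap for 18.2% of the 18178 genes. Smaller groups separate more easily, and the share of all genes was not counted with a library left out. The rise to 2 is therefore not a result about the members. The count of all genes at an adjusted p under 0.05 was 0 (2038 at an unadjusted p under 0.05) and became 1 with a pseudocount of 0.1, 2 without the trend and 1 with the robust trend, and ranged from 0 to 6 when libraries were left out. The 2038 genes became 994 with the replicate number as a block and 1176 (without control 3) to 4111 (without cytarabine 1) with a library left out. Same-numbered libraries come from different mice, and the titles of the samples number them otherwise. Their deviations from the group mean correlated at -0.709, -0.247 and -0.594, which does not decide what they share. The block left 0 members at an unadjusted p under 0.05.

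Among members, small differences changed sign. *H2-DMa* (0) had 0.014 with equal sums, 0.026 with median-of-ratios factors, 0.083 with the C1q and 0.15 with the monocyte and macrophage covariate, and -0.32 to 0.35 with a library left out. *H2-DMb1* had -0.074 with quantile normalization. *Ctss* had -0.74 with the colon and -0.066 with the B cell covariate, and -0.50 to 1.29 with a library left out, where *H2-Ab1* ranged from -0.007 to 0.93. Of 163 values of the 9 members other than *H2-DMa*, 15 had the opposite sign, 6 of them of *Ctss* and 3 of *Cd86*. The 10 pathway genes with an unadjusted p under 0.05 kept their direction in 188 values, and 7 of them kept that p, but *Rfxap* lost it in 12 of 19 alternatives, *Ctla4* in 9 of 17 and *Pdcd1lg2* in 5 of 19, with 0.129, 0.107 and 0.0614 from limma with the replicate block. The cause was not tested. Of the genes at an unadjusted p under 0.05, 43.7% were higher, and 49% with equal sums, 47.6% with median-of-ratios factors and 37.9% with quantile normalization. The limit of these data is the spread between 3 mice a group and, for *Ciita*, *Cd86* and *H2-DMb1*, 4 to 55 reads a library.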
